A study of Homo sapiens with 21 samples.

Results

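The expression of 10 genes was followed by RNA-seq in HMLE, an immortalized human mammary epithelial cell line. These genes of the WNT pathway were taken by symbol from the deposited table of 23201 genes. The 10 genes were the ligands WNT5A, WNT5B, WNT7A, WNT7B and WNT10A, the secreted antagonists SFRP1, DKK1 and DKK3, and AXIN2 and LEF1, which act inside the cell. Cells were untreated (d0) or had received TGFβ, a cytokine that induces epithelial-mesenchymal transition, for 1, 4, 7, 10, 15 or 20 days (d1 to d20). Each of the 7 timepoints had 3 libraries, described by the study as biological triplicates, so there were 21 libraries and 18 of them were treated. Per the labels, wells were seeded at one starting density. The TGFβ dose is not given in the sources used here, all libraries came from the same cell line, and the only untreated cells were those of d0, so that time in culture and time in TGFβ cannot be told apart.

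WNT ligands are secreted lipid-modified glycoproteins. PORCN adds the lipid, WLS carries the ligand to the cell surface, and Frizzled receptors with the LRP5 and LRP6 co-receptors bind it. In the canonical branch, bound ligand stabilises beta-catenin, which enters the nucleus and acts with transcription factors of the TCF/LEF family. SFRP1 binds WNT ligands outside the cell and DKK1 blocks the LRP co-receptors, whereas AXIN2 is both a target gene of beta-catenin and a scaffold of the complex that degrades it. WNT5A and WNT5B are known mainly for branches that do not need beta-catenin. In the mammary gland, WNT signals are known to sustain basal progenitor cells.

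Values are normalised reads, that is, the reads of a gene divided by one size factor per library. Libraries held between 18847917 and 22667754 reads, and the floor of detection was set at 3 reads per library. Of the 10 genes, 9 had a mean of at least 10 normalised reads and were tested, and WNT5A was below this limit. Over all genes tested, the log2 values of 2 libraries from one timepoint had a root mean square difference between 0.21 and 0.24, except that the third d7 library differed from the other two by 0.47 and 0.46. Fitted differences of single genes at d7 are therefore mostly given with and without it. Ratios from summed reads and the calls for each day use all 3 d7 libraries. Of 7 basal epithelial markers all 7 were tested. Their mean summed value was 358771 in untreated cells, lay between 293459 at d4 and 308284 at d1 early on, and reached 571948 at d7, with 345440 in the lowest and 708129 in the highest library. Later means were 216291 for d10, 507435 for d15 and 275492 for d20. Most of each sum came from KRT5, KRT14 and KRT17. Of the same list, EPCAM and CDH1 are general epithelial genes and not particular to basal cells. EPCAM had a mean of 2106 at d0 and 402 at d20, and CDH1 7195 and 2868. ITGA6 instead had 8586 and 19060. For 7 luminal epithelial markers, the mean summed value was 15927 at d0 and between 12259 at d7 and 16419 at d15 on treated days. Most of it came from KRT8 (mean 7955 at d0) and KRT18 (7357), and the luminal marker PGR was at the floor in every library. The fibroblast markers DCN and LUM, the endothelial marker CDH5 and the haematopoietic markers PTPRC and CD3E were at the floor in every library. Other genes of these lists were not, among them the endothelial genes KDR (42.1 normalised reads at d0, 263 at d15) and PECAM1 (41.3 at d0, 12.2 at d20) and the haematopoietic genes CD14 (46.4 at d0, 7.17 at d20) and CD68 (371 at d0, 648 at d20). The summed value of 7 fibroblast markers was between 495 and 514 at d0 and between 28249 and 30526 at d20, most of it from COL1A1, a collagen gene known to be induced by TGFβ. In these bulk libraries, a change in the share of cells that express a gene and a change in RNA per cell cannot be told apart.

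The promoters of WNT5B, WNT10A and DKK1 are shown because WNT5B had the largest increase of the 10 genes, WNT10A the only repeated decrease, and DKK1 is a known target of beta-catenin. Each run is the 250 bases before an annotated start, 5′ to 3′ on the strand of the gene, from RefSeq (GRCh38.p14). Entries were matched by symbol for 6 of the 10 genes (WNT5A, WNT5B, WNT7A, WNT10A, DKK1 and LEF1). Capitals mark CTTTGA or CTTTGT, the core letters of a TCF/LEF site, CAGAC, the letters of a SMAD box, and CACCTG, an E-box, each searched on both strands.
WNT5B, first start, chr12:1616806-1617055, plus strand: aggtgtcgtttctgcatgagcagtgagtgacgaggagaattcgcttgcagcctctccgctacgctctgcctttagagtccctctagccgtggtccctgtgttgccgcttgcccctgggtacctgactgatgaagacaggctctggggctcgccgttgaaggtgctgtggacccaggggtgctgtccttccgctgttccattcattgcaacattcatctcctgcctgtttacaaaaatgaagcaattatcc
WNT5B, second start, chr12:1628981-1629230, plus strand: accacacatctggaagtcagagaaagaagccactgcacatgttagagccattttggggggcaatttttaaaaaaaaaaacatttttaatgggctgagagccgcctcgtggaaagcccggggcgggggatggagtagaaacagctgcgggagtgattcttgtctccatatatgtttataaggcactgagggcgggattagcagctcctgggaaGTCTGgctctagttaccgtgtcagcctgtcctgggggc
WNT10A, chr2:218880602-218880851, plus strand: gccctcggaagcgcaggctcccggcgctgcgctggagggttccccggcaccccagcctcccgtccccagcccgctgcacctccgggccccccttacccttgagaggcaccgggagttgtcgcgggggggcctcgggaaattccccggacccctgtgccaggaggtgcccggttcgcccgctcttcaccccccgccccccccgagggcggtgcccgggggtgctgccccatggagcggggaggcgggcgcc
DKK1, chr10:52314031-52314280, plus strand: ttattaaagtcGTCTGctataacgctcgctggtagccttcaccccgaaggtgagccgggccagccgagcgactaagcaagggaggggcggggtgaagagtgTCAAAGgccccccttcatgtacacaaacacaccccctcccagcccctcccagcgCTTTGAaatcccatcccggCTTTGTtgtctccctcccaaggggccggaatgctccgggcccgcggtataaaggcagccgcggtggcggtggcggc
The DKK1 run held 4 matches and none of them overlapped another. From its 5′ end these were GTCTG, the reverse complement of CAGAC, then TCAAAG, the reverse complement of CTTTGA, then CTTTGA and CTTTGT. The run at the second WNT5B start held GTCTG, and those at the first WNT5B start and at WNT10A held none of the letters searched. Of 35116 promoter runs of the same length, 11.2% held CTTTGA, 13.7% CTTTGT, 38% CAGAC and 17.5% CACCTG on either strand. A match describes letters only, and no binding was measured here. Since the deposited values are given per gene, they do not say which start was used. The labels name hg19 as the build, which is not the build of these runs.

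Among the ligands, WNT5B went from near the floor to between 203 and 227 normalised reads within 1 day of TGFβ and did not return. At d0 the 3 libraries had 0.89, 0.85 and 4.95 normalised reads, 7 reads in all, and at d1 they had 225, 203 and 227. Values were 358, 375 and 355 at d4 and 259, 236 and 346 at d7. They were 411, 418 and 390.2 at d10, 365, 358 and 327 at d15, and 324, 354 and 328 at d20. Every treated library was far above every untreated one, and the lowest of the treated values was in d1. The ratio to d0 from summed reads was 103 at d1 (95% exact counting interval 49.9 to 258), 192 at d10 (93.1 to 479) and 159 at d20 (76.7 to 396). These wide intervals reflect the 7 reads at d0 and cover counting error only. Fitted log2 fold changes were between 6.32 (SE 0.27, adjusted p = 1.2e-14) at d1 and 7.21 (adjusted p = 9.3e-16) at d10, and depend on the pseudocount of 1. Between treated days, d4 was above d1 by 0.73 on the log2 scale (adjusted p = 0.021), and no later step between consecutive days passed the test in this fit. The d4 step was lost without the second d1 library (adjusted p = 0.062) or the second d4 library (adjusted p = 0.054). The step from d4 to d7, -0.39 (adjusted p = 0.23) with all libraries, was -0.55 (adjusted p = 0.033) without the third d7 library, and the fitted difference of d7 from d0 was 6.66 with it and 6.49 without it.

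WNT7A and WNT7B, close paralogs that signal through Frizzled receptors in epithelia, both had their highest means at d1 and d4. For WNT7A, d10 did not differ beyond its spread from d4 (log2 difference -0.24, limma adjusted p = 0.083) or d1 (-0.30, limma adjusted p = 0.066). WNT7A had 77.4, 105 and 70.25 normalised reads at d0, 387, 371 and 406 at d1, and 369, 399 and 349.6 at d4. It had 202, 188 and 139 at d7, and 313, 325 and 304 at d10. At d15 it had 149, 159 and 152, and at d20 192, 204 and 196. The level thus went up and down by turns, and no treated library was as low as an untreated one. WNT7A was above d0 on each treated day, by 2.21 (log2, SE 0.12, adjusted p = 1.7e-12) at d1, 1.91 at d10, 0.88 at d15 and 1.24 (adjusted p = 1.9e-08) at d20. It fell by 1.09 from d4 to d7 (adjusted p = 4.2e-07), rose by 0.85 from d7 to d10 (adjusted p = 3.4e-06) fell by 1.03 from d10 to d15 (adjusted p = 1.5e-07) and rose by 0.36 from d15 to d20 (adjusted p = 0.013). Without the third d7 library the decrease from d4 to d7 was 0.93, under 2-fold, with an adjusted p of 1.2e-09, and the increase from d7 to d10 was 0.69. Against d0, WNT7A at d7 was at 1.06 with this library and 1.22 without it.

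WNT7B had 165, 164 and 182 normalised reads at d0, 895, 829.7 and 811 at d1, and 900.2, 863 and 832 at d4. The d7 values were 579, 545 and 644, and the d10 values 428, 430.5 and 433. The d15 values were 424, 408 and 426, and the d20 values 286, 310.5 and 284. In contrast to WNT7A, its level never turned upward again after d4, although all treated libraries stayed above d0. The difference from d0 was 2.31 (log2, SE 0.06, adjusted p = 7.7e-18) at d1, 2.34 at d4, 1.79 at d7 (1.72 without the third library), 1.34 at d10 and 0.78 (adjusted p = 7.0e-10) at d20. In the order of levels, d1 and d4 did not differ beyond their spread (adjusted p = 0.66), nor did d10 and d15 (adjusted p = 0.59), and each other pair of neighbours did.

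WNT10A, a ligand of the beta-catenin branch, was the ligand of the 10 genes that fell. It had 249, 240.0 and 259 normalised reads at d0, 53.3, 32.8 and 39.7 at d1, and 86.2, 104 and 106 at d4. It had 201, 178 and 93.1 at d7, then 11.9, 13.6 and 11.7 at d10. At d15 it was back at 142, 152 and 153, and at d20 it had 32.9, 30.5 and 36.2. All 18 treated libraries were below all 3 untreated ones, with d10 lowest and d7 and d15 nearest to d0. The difference from d0 was -2.57 (log2, SE 0.20, adjusted p = 5.9e-10) at d1, -4.22 (adjusted p = 9.9e-14) at d10, -0.74 (adjusted p = 0.0027) at d15 and -2.88 (adjusted p = 7.2e-11) at d20. Between consecutive days it fell by 3.49 from d7 to d10 (adjusted p = 8.2e-12), rose by 3.48 from d10 to d15 (adjusted p = 1.5e-12) and fell by 2.14 from d15 to d20 (adjusted p = 6.4e-09). At d7 the difference from d0 was -0.74 (adjusted p = 0.0034) with all 3 libraries and -0.40 (adjusted p = 0.030) without the third, and from d7 to d10 WNT10A then fell by 3.83.

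WNT5A, the paralog of WNT5B, was close to the floor throughout. Its values were 0.89, 0 and 0 at d0 (1 read in all), 0, 0 and 1.98 at d1, and 4.21, 6.82 and 5.88 at d4. The d7 values were 4.22, 7.3 and 2.79, the d10 values 1.99, 3.89 and 2.93, the d15 values 4.08, 4.52 and 5.18, and the d20 values 3.18, 2.1 and 0. The libraries of d4, d7, d10 and d15 were all above those of d0, and those of d1 and d20 overlapped them. From 17 reads at d4 against 1 at d0, the ratio was 18.8 (95% exact counting interval 2.94 to 785), and at d20 it was 5.68 (0.636 to 269). With no filter on low values, limma gave a log2 difference of 2.40 at d4 (adjusted p = 0.00025) and 0.93 at d20 (adjusted p = 0.14).

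**Figure D1:**
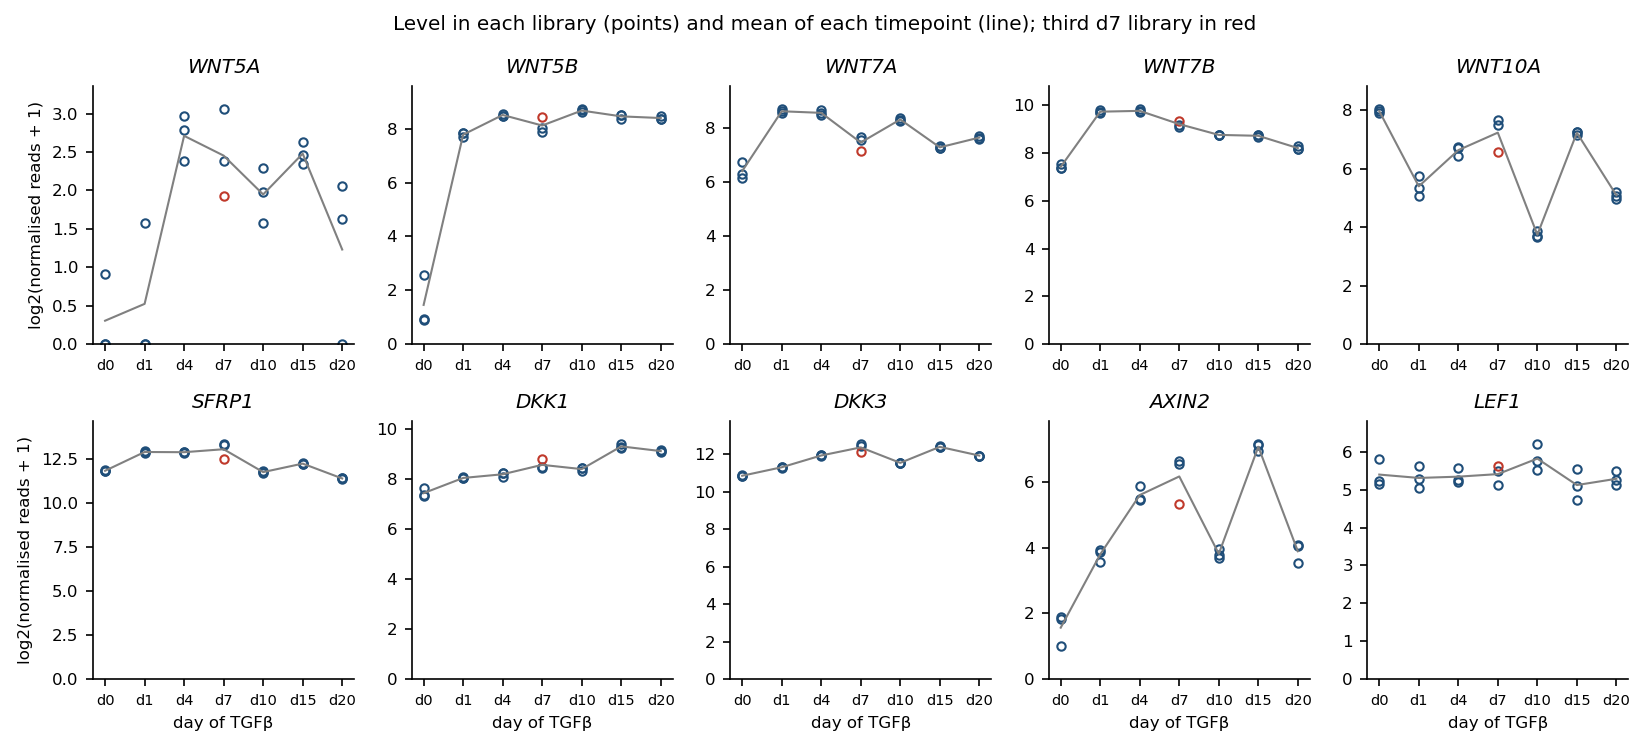
Level of each of the 10 genes, as log2(normalised reads + 1), by day of TGFβ, with 1 point per library, a line through the mean of each timepoint and the third d7 library in red. WNT5B steps up at d1 and stays up, WNT7B peaks at d1 and d4, WNT10A and AXIN2 swing together after d1, and LEF1 stays level. Each panel has its own vertical scale.

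Among the secreted antagonists, SFRP1 was first higher and then lower than in untreated cells, while DKK1 and DKK3 were higher on every treated day. SFRP1 had 3722, 3775 and 3607 normalised reads at d0, 8053, 7708 and 7534 at d1, and 7869, 7664 and 7577 at d4. It had 10514, 10409 and 5939 at d7, and 3613, 3372 and 3555 at d10. At d15 it had 5040.3, 4924 and 4774, and at d20 2729, 2656 and 2815. The d20 libraries were all below those of d0, the d10 libraries overlapped them, and the d7 libraries were split. SFRP1 was above d0 by 1.07 (log2, SE 0.12, adjusted p = 2.3e-07) at d1, 1.06 at d4, 1.23 at d7 (1.5 without the third library) and 0.41 (adjusted p = 0.0056) at d15. The difference was -0.08 (adjusted p = 0.61) at d10 and -0.44 (adjusted p = 0.0045) at d20, under 2-fold. From d7 to d10 SFRP1 fell by 1.30 (adjusted p = 8.9e-09), and from d15 to d20 by 0.85 (adjusted p = 3.3e-06). Without the third d7 library, SFRP1 fell by 1.57 from d7 to d10.

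DKK1 had 165, 158 and 199.9 normalised reads at d0, 271, 262 and 261 at d1, and 307, 272 and 302 at d4. It had 355, 345 and 451 at d7, and 353, 317 and 346 at d10. At d15 it had 674, 624 and 612, and at d20 548, 576 and 552. The d15 and d20 libraries were above all others, and no treated library overlapped d0. The difference from d0 was 0.61 (log2, SE 0.09, adjusted p = 9.3e-06) at d1, 1.13 at d7 (1.01 without the third library), 1.87 (adjusted p = 8.1e-14) at d15 and 1.68 (adjusted p = 9.2e-13) at d20. The step from d10 to d15 was 0.91 (adjusted p = 1.2e-08), and the difference of d20 from d15 was -0.19 (adjusted p = 0.074), which passed under 5 of the alternatives.

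DKK3, a member of the Dickkopf family that differs from DKK1 in that it is not an established blocker of the LRP co-receptors, had 1799, 1821 and 1899 normalised reads at d0. It had 2588, 2431 and 2534 at d1, 3970.1, 3936 and 3769 at d4, and 5881, 5520.4 and 4449.8 at d7. It had 2964, 2949 and 2976 at d10, 5549, 5257 and 5256 at d15, and 3866, 3881 and 3883 at d20. DKK3 therefore had peaks at d7 and d15 with a dip at d10, and all treated libraries were above d0. The difference from d0 was 0.45 (log2, SE 0.06, adjusted p = 2.8e-06) at d1, 1.51 at d7 (1.63 without the third library), 0.69 (adjusted p = 4.0e-09) at d10, 1.54 (adjusted p = 3.0e-15) at d15 and 1.08 at d20. DKK3 fell by 0.82 from d7 to d10 (adjusted p = 3.6e-10), or by 0.94 without the third d7 library, rose by 0.85 from d10 to d15 (adjusted p = 6.3e-11) and fell by 0.47 from d15 to d20 (adjusted p = 1.0e-06).

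AXIN2 was near the floor at d0 and changed more between treated days than any other of the 10 genes except WNT10A. It had 2.67, 2.54 and 0.99 normalised reads at d0 (7 reads in all), 13.6, 14.4 and 10.9 at d1, and 43.1, 42.8 and 57.8 at d4. It had 98.1, 91.8 and 39.1 at d7, and 11.9, 14.6 and 12.7 at d10. At d15 it had 138, 140.2 and 122, and at d20 15.9, 10.5 and 15.7. The d1, d10 and d20 libraries lay in one narrow range, and those of d4, d7 and d15 lay well above it. From summed reads, the ratio to d0 was 6.12 at d1 (95% exact counting interval 2.7 to 16.2), 22.7 at d4 (10.8 to 57.5), 35.4 at d7 (16.9 to 89.1), 6.19 at d10 (2.75 to 16.4), 63.3 at d15 (30.4 to 158) and 6.66 at d20 (2.96 to 17.6). AXIN2 rose by 1.80 on the log2 scale from d1 to d4 (SE 0.29, adjusted p = 1.8e-05), fell by 2.35 from d7 to d10 (adjusted p = 3.8e-07), rose by 3.26 from d10 to d15 (adjusted p = 1.5e-09) and fell by 3.18 from d15 to d20 (adjusted p = 3.5e-09). Levels at d1, d10 and d20 did not differ beyond their spread (adjusted p = 0.97 for d10 against d1 and 0.85 for d20 against d10). From d4 to d7 the difference was 0.57 (adjusted p = 0.11) with all libraries and 0.99 (adjusted p = 0.0023) without the third d7 library. Without it, AXIN2 fell by 2.77 from d7 to d10, and the fitted difference of d7 from d0 was 5.02 in place of 4.6.

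LEF1, a transcription factor that binds beta-catenin and is itself a target of the pathway, did not pass the test against d0 on any day in the main limma fit. It had 36.5, 55.1 and 34.6 normalised reads at d0, 48.1, 31.8 and 37.7 at d1, 46.3, 36.0 and 37.2 at d4, and 33.8, 43.8 and 48.4 at d7. It had 52.75, 44.7 and 72.4 at d10, 45.9, 25.3 and 33.15 at d15, and 33.9, 36.8 and 44.1 at d20. All treated timepoints overlapped d0. Log2 differences from d0 lay between -0.28 (SE 0.23, adjusted p = 0.29) at d15 and 0.42 (adjusted p = 0.12) at d10. The d10 difference passed with quantile normalisation (0.60, adjusted p = 0.035) and without the second d0 library (0.63, adjusted p = 0.033). LEF1 was lower at d15 than at d10 by a log2 difference of -0.70 (adjusted p = 0.0099), which no longer passed without the third d10 library (-0.51, adjusted p = 0.073) or without the second d15 library (-0.50, adjusted p = 0.075). In GENCODE release 29, exons of LEF1 and DKK1 overlap the antisense genes LEF1-AS1 and PRKG1-AS1, and AXIN2 overlaps AC004805.1 on the same strand. Since strand use in counting is not given in the sources used here, reads of the antisense pairs cannot be told apart. For AXIN2 and AC004805.1, strand use would not tell the reads apart either.

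**Figure D2:**
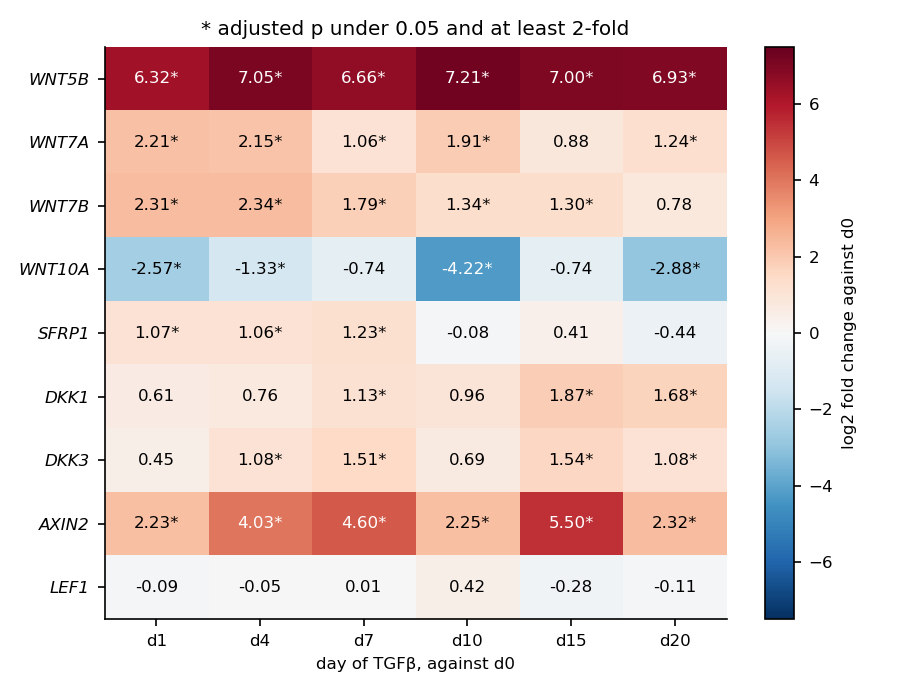
Log2 fold change against d0 for the 9 genes tested (rows) on each day of TGFβ (columns), from limma, with red for higher and blue for lower values and an asterisk where the adjusted p was under 0.05 and the change at least 2-fold. AXIN2 and WNT5B carry an asterisk on each of the 6 days, WNT10A on 4 days in the lower direction, and LEF1 on none. All 6 columns share the same 3 untreated libraries.

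A gene was called when it changed at least 2-fold with an adjusted p under 0.05. By this rule 5 of the 9 genes were higher and 1 was lower at d1, where 6.47% of the 13343 genes tested were higher and 3.87% lower. At d4, 6 were higher (9.68% of all genes) and 1 lower (5.03%), and at d7, 7 were higher (8.79%) and 0 lower (2.93%). The counts at d10 were 4 higher (6.94%) and 1 lower (7.34%). For d15 they were 5 (11.7%) and 0 (8.66%), and for d20 they were 5 (7.51%) and 1 (4.72%). Wherever 1 gene was lower, it was WNT10A. The share of the 9 genes called higher was thus several times that of all genes on each day. The median log2 difference of the 9 genes from d0 was between 0.96 at d10 and 1.30 at d15, and that of all genes tested was between 0.00 and 0.03. The 9 genes were chosen with earlier results of these data known, and the 6 comparisons share the d0 libraries. With libraries rescaled to the same total, the median log2 difference of all genes from d0 was between -0.20 and -0.14, and 34.8% to 59.2% of the genes called were higher in place of 48.6% to 75%.

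Between consecutive treated days, fewer of the 9 genes were called, and AXIN2 and WNT10A made up most of the calls. From d1 to d4, 2 were higher (AXIN2 and WNT10A, against 4.19% of all genes) and 0 lower (1.98%), and from d4 to d7, 0 were higher (2.27%) and 1 lower (WNT7A, against 1.51%). From d7 to d10, 0 were higher (3.63%) and 3 lower (AXIN2, SFRP1 and WNT10A, against 9.09%). From d10 to d15, 2 were higher (AXIN2 and WNT10A, against 12%) and 1 lower (WNT7A, against 10.2%), and from d15 to d20, 0 were higher (7.55%) and 2 lower (AXIN2 and WNT10A, against 7.43%). AXIN2 and WNT10A were called together in 4 of these 5 comparisons and each time in the same direction, although against d0 one was higher and the other lower.

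Some other values moved with this alternation. MKI67, a marker of cycling cells that was chosen after its values were seen, had 7273, 7175 and 7589 normalised reads at d4, 10829, 11607 and 11427 at d10, 3385, 3226 and 3261 at d15, and 11872, 12183 and 12311 at d20. It was thus lowest where AXIN2 was highest. At d7 the third library had 11850.1 against 7210 and 6834 in the other two, and it also had the lowest AXIN2, WNT10A, SFRP1 and DKK3 of the 3. TOP2A, also used to mark cycling cells, had 7277, 7197 and 7372 at d15 and 16703, 16846 and 17507 at d20, and did not set the third d7 library apart, with 16020 against 14882 and 15160. Its means were 10840 at d1 and 10730 at d4, between which AXIN2 rose. They were 15350 at d7 and 12340 at d10, between which AXIN2 fell, so TOP2A did not mirror AXIN2 on these days. MKI67 at d0 was 10626, 10739 and 10649, where AXIN2 was at its lowest and WNT10A at its highest. The summed basal markers were also high at d7 and d15 and low at d10, and KRT17, a basal keratin, had 184224, 169632 and 55169 normalised reads at d7, 13034, 14213 and 12669 at d10, and 186759, 181902 and 191369 at d15. KDR, an endothelial gene, had 229, 197 and 43.7 at d7, 1.99, 3.89 and 2.93 at d10, and 273, 263 and 253 at d15. KRT17 and KDR were also named after their values were seen, and not every gene of their lists moved this way. Of the other basal genes, KRT5, KRT14, TP63 and CDH1 had lower means at d10 than at d7 and d15. ITGA6 instead had means of 16510 at d7, 25310 at d10 and 13790 at d15, and EPCAM was also highest of these days at d10. The endothelial gene PECAM1 had means of 10.76, 14.72 and 9.063, with d7 and d10 libraries that overlapped. VWF libraries overlapped on these days. The part of the cell cycle and of these marker genes in the results was not tested.

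**Figure D3:**
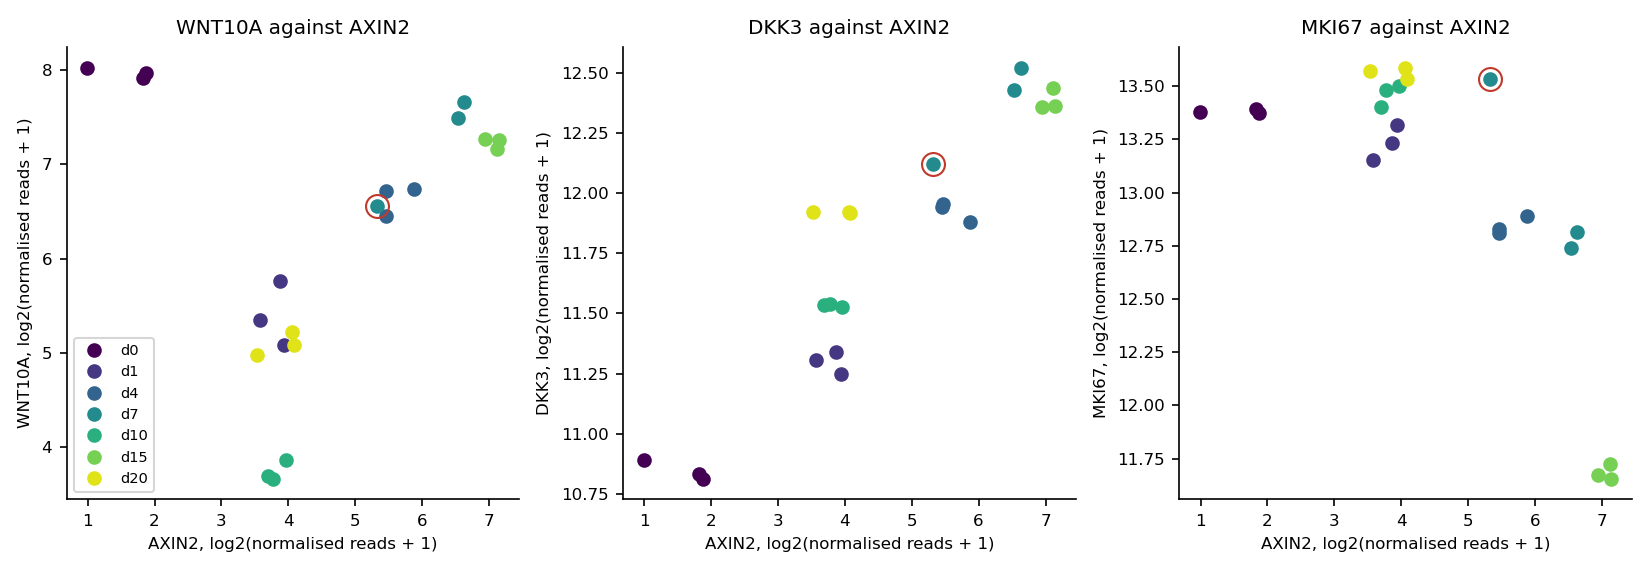
WNT10A, DKK3 and MKI67 plotted against AXIN2 for the 21 libraries, all as log2(normalised reads + 1), coloured by day, with a red ring on the third d7 library. Among treated libraries WNT10A and DKK3 are high where AXIN2 is high, d0 stands apart in the WNT10A panel, and MKI67 is lowest at d15. The vertical axes do not start at 0.

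Across the 21 libraries, the gene outside the pathway lists with the most similar pattern of log2 values was looked for among 11444 genes with a mean of at least 50 normalised reads. For WNT5B this was PMEPA1 (Pearson r = 0.991), a known target of TGFβ signalling, for AXIN2 P4HA2 (r = 0.983), a subunit of collagen prolyl hydroxylase, and for WNT10A ETNK2 (r = 0.981). For DKK1 it was FBLN5 (r = 0.972), an extracellular matrix protein. Others were C19orf66 for DKK3 (r = 0.98), C15orf52 for WNT7A (r = 0.965), RIMS3 for SFRP1 (r = 0.95) and PSTK for LEF1 (r = 0.719). Spearman rho was lower, at 0.826 for WNT5B with PMEPA1, 0.852 for SFRP1 with RIMS3 and 0.694 for LEF1 with PSTK. For the other pairs named it lay between 0.932 and 0.975. The largest change of WNT5B was the step from d0, which weighs strongly in its Pearson r. These values describe likeness only, since libraries of one timepoint share their treatment and the best of many genes was taken. LEF1 had no close partner by this measure.

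The wider pathway was described with lists of 82 genes, the 10 included, of which 51 were tested. Among the 42 other genes tested, 10 were called higher and 3 lower at d20, where 7.51% of all genes tested were higher and 4.72% lower, and their median log2 difference was -0.04 against 1.08 for the 9 genes. Of 19 ligands, 8 were tested and 6 were at the floor in every library. At d20, 3 of the 8 were higher, 2 lower and 3 not called. These and the following counts at d20 stand beside the same shares of all genes. WNT3 was higher by 1.74 (SE 0.22, adjusted p = 7.1e-07), from 17.5 to 57.9 normalised reads. WNT4, a ligand that acts downstream of progesterone in the mammary gland, was lower by a log2 difference of -3.76 (adjusted p = 7.6e-12), from 274 to 20.3. Between treated days, WNT4 had a log2 difference of -3.48 from d7 to d10 and 4.30 from d10 to d15 (adjusted p = 4.5e-13), steps in which WNT10A also fell and rose. From d4 to d7 the difference of WNT4 was -0.32 (adjusted p = 0.26) and that of WNT10A was 0.60 (adjusted p = 0.019). The third d7 library had 63.3 normalised reads of WNT4, against 132 and 123 in the other d7 libraries and a mean of 127 at d4. Without it the WNT10A difference was 0.94 (limma adjusted p = 5.9e-06). That of WNT10A no longer passed with only both groups in the limma fit (adjusted p = 0.13) or without the first d7 library (limma adjusted p = 0.14), among others.

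Of 13 secreted antagonists, 4 were tested, 7 were at the floor in every library, and 3 of the 4 were higher at d20. DKK2 was the only one of them outside the 10 genes. It had 7 reads in all at d0 and was 16.7 times d0 at d10 (95% exact counting interval 7.85 to 42.6), 13.5 times at d20 (6.26 to 34.6) and 2.48 times at d15 (0.966 to 7.13). DKK2 was thus high at d10 and d20 and low at d15, where DKK3 and AXIN2 were high. For ligand export, PORCN was higher at d20 by 1.32 (adjusted p = 7.2e-14), while WLS was at -0.71 (adjusted p = 3.0e-06), under 2-fold.

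Of 16 receptors and co-receptors, 13 were tested, 5 were higher, 2 lower and 6 not called at d20. ROR1, a receptor for WNT5A-type ligands, was higher by 2.74 (adjusted p = 1.0e-11), from 18.5 to 129 normalised reads. FZD4 was higher by 2.63 (adjusted p = 2.9e-18) and FZD8 by 1.28, whereas FZD5 was lower by a log2 difference of -1.61 (adjusted p = 2.0e-11) and FZD3 by -1.24. The receptor set at d20 therefore differed from that at d0 in both directions. Of 9 R-spondins, R-spondin receptors and ligases, 4 were tested, with LGR6 higher by 2.35 (adjusted p = 3.7e-11), and the 4 R-spondins were at the floor in every library.

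The remaining lists hold proteins that act inside the cell. Of 11 cytoplasmic transducers tested, AXIN2 was called at d20 and the other 10 were not, and at d15 3 of the 11 were called higher, where 11.7% of all genes were. DVL1 was called higher at d1, d4, d10 and d15 but not at d7 or d20. Its mean was 1749 normalised reads at d0 and 3250 at d20, under 2-fold. Of 8 nuclear partners of beta-catenin, TCF7L1, a TCF family member known mainly as a repressor, was higher at d20 by 1.60 (adjusted p = 2.2e-13), and the other 7, LEF1 among them, were not called. At d15, 3 of these 8 were called higher. Of 12 feedback genes that beta-catenin signalling is known to induce, 7 were tested, and those called higher at d20 were AXIN2 and DKK1. The median log2 difference of these 7 at d20 was -0.03, near that of all genes tested. At d15, where AXIN2 was highest, 3 of the 7 were called, the third being TCF7 with a log2 difference of 1.62 (adjusted p = 8.9e-12). Of the feedback genes below the filter, APCDD1 had 60 reads in all at d0, 5 at d15 and 1 at d20. NOTUM had 7, 59 and 5 reads, NKD2 6, 30 and 4, and SP5 1, 24 and 17, and LGR5 was at the floor in every library.

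**Figure D4:**
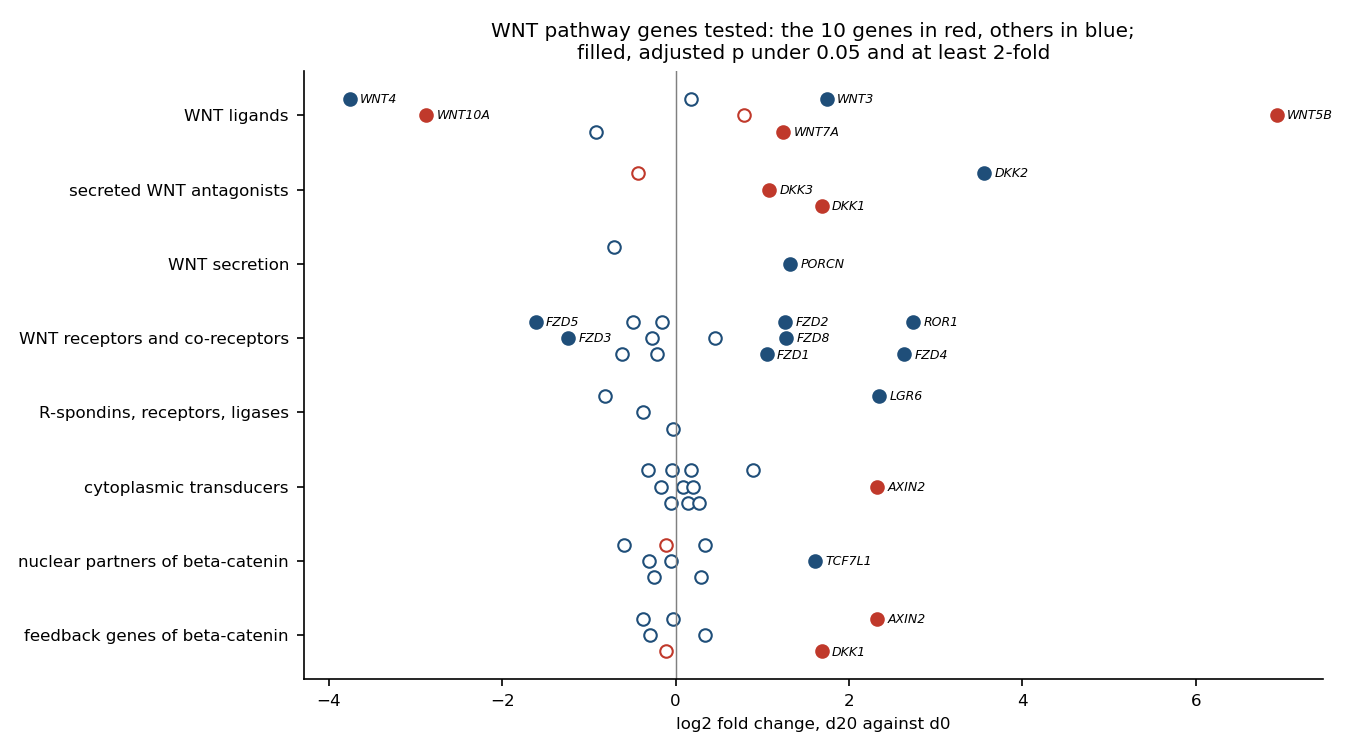
Log2 fold change at d20 against d0 (horizontal axis) for each WNT pathway gene tested, by list, with the 10 genes in red, the other pathway genes in blue, and filled points where the adjusted p was under 0.05 and the change at least 2-fold. WNT5B lies farthest to the right at 6.93 and WNT4 farthest to the left at -3.76, and most intracellular genes lie near 0. AXIN2, DKK1 and LEF1 appear in 2 lists each.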

How the data were processed

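RNA was extracted with Trizol and sequenced on Illumina libraries. The authors deposited a normalised signal per gene and library, in which the reads of each library had been divided by its size factor and rounded to 2 decimals. In each library 100% of the values were whole reads within 0.0051 plus a small share of the value. For the highest values this limit is wide and tests little. The submitters' processing notes name STAR 2.7, Salmon 1.4 and hg19, with no role or order. The test was limma 3.58.1 (R 4.3.3, trend) on log2(value + 1), with all 21 libraries in one fit, for genes with a mean of at least 10, and Benjamini-Hochberg adjustment over the 13343 genes in each contrast. Calls needed a 2-fold change or more and an adjusted p under 0.05, and "rose" or "fell" is used at an adjusted p under 0.05. Ratios near the floor use summed reads with exact binomial 95% intervals.

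The 11 comparisons were repeated with a pseudocount of 10, no filter, rescaled or quantile-normalised libraries, only both groups in the fit, edgeR 4.0.16 and DESeq2 1.42.0 on recovered reads, no minimum fold change, and each library left out. The fits were tested on simulated data. The members and lists were chosen with earlier results of these data known. Of each list, up to 3 genes with the largest increase and 3 with the largest decrease called at d20 are named. Further genes complete a count or show a course unlike that of the genes named. Libraries are named by column order within a timepoint, which is a name only. The likeness result of WNT7B and 1 marker gene are not reported here.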

Additional observations from a re-analysis of the deposited data

Results flagged for a closer look

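SFRP1 was higher than in untreated cells on some days and lower on another. Its log2 difference from d0 was 1.23 at d7 and -0.44 at d20, and d7 and d20 differed directly by 1.66 (SE 0.12, limma adjusted p = 1.1e-09). APC2, a transducer outside the 10 genes, was higher at d15 (1.02) and lower at d10 (-1.02), and these days differed directly by 2.04 (SE 0.18, limma adjusted p = 1.4e-09). Timepoints had 3 libraries each, too few to test single libraries as outliers.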

How the results depend on the processing

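The 12 counts were recomputed under the alternatives, which gave 194 values, of which 187 stayed within 1.5 times the main count and 7 did not. With no minimum fold change, members called were 8 at d15 against d0, 4 at d4 against d1, 5 at d7 against d4, 6 at d10 against d7, 7 at d15 against d10 and 6 at d20 against d15. Of 13343 genes tested, 5236 were then higher and 4972 lower at d15 against d0, and 4390 and 4266 at d4 against d1. The numbers were 3406 and 3406 at d7 against d4, and 4833 and 4692 at d10 against d7. At d15 against d10 they were 5246 and 5403, and at d20 against d15 5031 and 4850. Most genes tested thus passed each time, so these counts are not particular to the members. Leaving out single libraries gave between 0 and 1 at d7 against d4, and the 0 came without the third d7 library, where WNT7A was at -0.93 on the log2 scale (limma adjusted p = 1.2e-09). Over the 99 fold changes of single genes, 1386 values were computed. None of them reversed a passed test, 9 no longer passed and 30 passed where they had not. SFRP1 at d15 against d0 went to 0.25 (limma adjusted p = 0.069) with libraries rescaled to the same total, and SFRP1 at d10 went to -0.30 (limma adjusted p = 0.031). WNT5B at d10 against d7, which missed the threshold at 0.55 (limma adjusted p = 0.068), passed under 7 alternatives, among them DESeq2 (0.52, adjusted p = 6.9e-06) and edgeR (0.51, adjusted p = 0.00022). WNT5B at d7 against d4 passed with edgeR (-0.35, adjusted p = 0.0098) and DESeq2 (-0.37, adjusted p = 0.0034) among 5 alternatives. DKK1 at d20 against d15 passed under 5 alternatives, with adjusted p-values from 0.0026 with only both groups in the limma fit to 0.046 with DESeq2. AXIN2 at d7 against d4 passed with edgeR (0.67, adjusted p = 0.022) and DESeq2 (0.66, adjusted p = 0.046). What lies behind these shifts was not tested. Libraries were treated as unpaired. No paired analysis was possible because no replicate number stands in any column name. Depth limits WNT5A, WNT5B and AXIN2 at d0, where few reads make the size of each fold uncertain.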
